A study of Mus musculus with 9 samples.

Results

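Gucy1b2 and Trpc2 are the genes that mark a sparse, atypical class of sensory neurons of the mouse main olfactory epithelium, often called type B cells. They were taken from the table of expected counts by their symbols, and they are 2 of the 55291 genes measured. Both passed the filter of at least 10 counts summed over all mice, as did 23225 genes in all. The rule that selected them used their symbols and no measured value, although it was written with earlier results of these data known.

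Gucy1b2 encodes a beta subunit of soluble guanylate cyclase, the enzyme family that makes cyclic GMP and that in its usual form responds to nitric oxide. Trpc2 encodes a cation channel best known as the transduction channel of vomeronasal neurons, where it opens downstream of phospholipase C. In the main epithelium both are found together in type B cells, which have been linked to the sensing of low oxygen and which also carry Cnga2, the cyclic nucleotide-gated channel of ordinary olfactory neurons. Other Trpc2 cells of the main epithelium, called type A, lack Gucy1b2.

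The study sequenced polyadenylated RNA of whole dissected epithelium from 9 mice, each between 8 and 12 weeks old. The genotypes were wild-type, labelled C57BL/6, Ms4a cluster KO and Ms4a6c KO, with 3 mice of each. The Ms4a genes encode four-pass membrane proteins, many of them found in necklace olfactory neurons. In the cluster line a block of these genes was removed by CRISPR/Cas9, and in the other line Ms4a6c alone was disrupted by homologous recombination. Both deletions are present in every cell of the animal, the wild-type mice are described as littermates without saying of which line, and the labels name no treatment.

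Expected counts summed to between 13954591 and 21987174 per mouse. Ms4a6c had between 53.95 and 90.34 expected counts in the wild-type mice, 0 in each Ms4a cluster KO mouse and at most 2.35 in an Ms4a6c KO mouse. Nasal gland transcripts took 22.4% of the counts of wild-type replicate 1 and 24.0% of those of Ms4a cluster KO replicate 2, against 1.82% to 5.53% in the other mice, and these gland-rich mice stood apart. Levels are given below as CPM, the usual depth-scaled counts, with library size estimated by TMM from genes that do not dominate the counts. The list of 13 mature olfactory neuron genes summed to between 12360 and 15610 CPM in the 9 mice. Of 18 nasal gland genes, 0 were called in any comparison, where 0.0258% to 0.443% of all genes were. Their median log2 fold change was 0.08 in Ms4a cluster KO and -1.6 in Ms4a6c KO against wild-type. It was 2.63 in Ms4a cluster KO against Ms4a6c KO. Both gland-rich mice were outside Ms4a6c KO, so the absence of calls does not show equal gland content between genotypes. Of 603 vomeronasal receptor genes, receptor pseudogenes and associated genes, 458 were at 0 in every mouse.

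Trpc2 does not have an exon base of its own in the annotation, which bears on every value it has. It lies on the plus strand of chromosome 7, at chr7:102083116-102096396 of mouse genome build GRCm38 (ENSMUSG00000100254.1), as a single transcript of 13 exons and 2874 bases. The read-through gene Xntrpc (ENSMUSG00000070425.13) covers chr7:102065713-102096864 on the same strand, joins exons of the upstream gene Xndc1 to those of Trpc2, and contains 12 of the 13 Trpc2 exons whole. It shares 2803 exon bases with Trpc2, or 97.5% of the transcript. The other 71 bases are the first Trpc2 exon, of which 15 are coding, and they lie within an exon of Xndc1 (chr7:102065511-102083765, ENSMUSG00000099481.6). Trpc2 therefore differs from both genes where that first exon is spliced to the next one. Xntrpc also has bases outside Trpc2, in its upstream exons and past the Trpc2 end at 102096396. The junctions are shown 5′ to 3′ on the plus strand, because a read across them can tell Trpc2 from the other genes. The last 15 bases of the upstream exon are in capitals. The first 30 bases of the shared exon, which starts at 102083861, are in lower case. The upstream exon ends at 102083186 in Trpc2, at 102083018 in the coding transcript of Xntrpc and at 102082441 in an Xntrpc transcript with no coding end at this exon.
Trpc2: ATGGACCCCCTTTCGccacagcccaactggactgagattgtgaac
Xntrpc, coding: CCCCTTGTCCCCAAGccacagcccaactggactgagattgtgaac
Xntrpc, other: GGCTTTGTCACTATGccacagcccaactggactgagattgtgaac

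**Figure D1:**
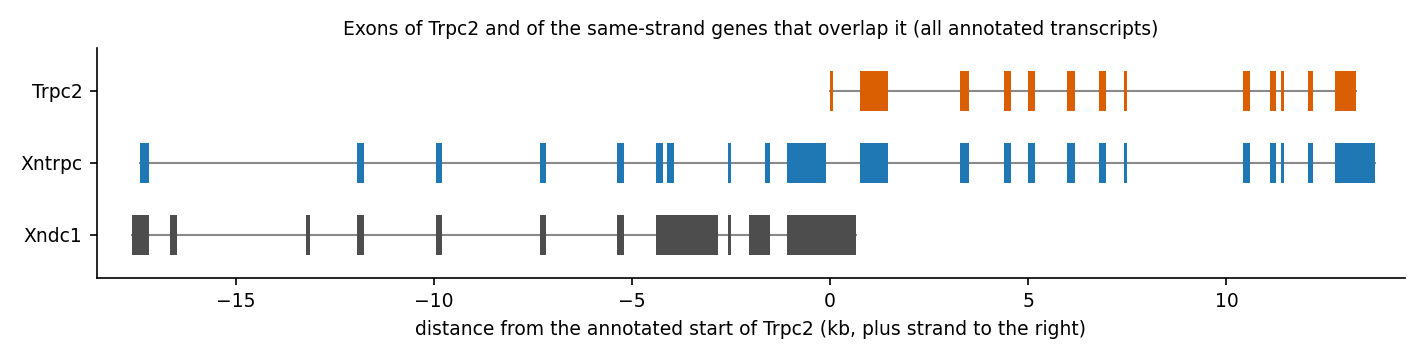
Exons of Trpc2, Xntrpc and Xndc1 from all annotated transcripts, drawn to scale as boxes against the distance from the annotated Trpc2 start in kb. From the second Trpc2 exon on, every box of Trpc2 lies within a box of Xntrpc, and the first box of Trpc2 lies within the last box of Xndc1.

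The counting of the reads shows the same sharing. The expected counts of Gucy1b2 were whole numbers in all 9 mice, which is what reads that fit 1 gene give, whereas those of Trpc2, Xntrpc and Xndc1 were mostly fractional. In each mouse the 3 fractional values summed to a whole number within 0.02 of a read, from 151.99 in Ms4a cluster KO replicate 2 to 572 in Ms4a6c KO replicate 1. Reads were therefore divided among these genes in proportions estimated by the quantification program. Gucy1b2 overlaps no other gene and had no such limit. It lies on the minus strand at chr14:62392676-62456289 (GRCm38, ENSMUSG00000021933.11), with 17 exons in its longest transcript and 2745 exon bases over its 3 transcripts.

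Gucy1b2 was higher in the Ms4a6c KO mice than in both other genotypes, and this difference did not pass the test over all genes. The expected counts were 27, 38 and 41 in wild-type replicates 1, 2 and 3. They were 30, 20 and 46 in the Ms4a cluster KO mice and 67, 108 and 71 in the Ms4a6c KO mice, in the same order. Scaled to depth, the wild-type levels were 1.92, 2.11 and 2.33 CPM, a mean of 2.12 ± 0.207 (SD, n = 3). The Ms4a cluster KO levels were 1.50, 1.99 and 2.31 CPM, a mean of 1.93 ± 0.405 (SD, n = 3), and overlapped with wild-type. The Ms4a6c KO levels were 2.75, 6.70 and 4.52 CPM, a mean of 4.66 ± 1.98 (SD, n = 3). The lowest Ms4a6c KO mouse lay above the highest of the other 6 mice, and the spread within this genotype was the widest of the 3. A count of 3, taken as the limit of detection for counting error, corresponds to between 0.123 and 0.299 CPM, so the gene was above the limit in every mouse.

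In the edgeR quasi-likelihood fit of all 9 mice, Gucy1b2 was 1.12 higher on the log2 scale in Ms4a6c KO than in wild-type (SE 0.31, 95% interval 0.42 to 1.82), a fold of 2.17. The unadjusted p was 0.00506 and the Benjamini-Hochberg adjusted p over 23225 genes was 0.228. In this comparison 10.48% of all genes had an unadjusted p under 0.05 and 9.71% were higher in all 3 Ms4a6c KO mice without overlap. After adjustment 0.435% passed. Separation from wild-type alone was therefore not rare, and the share of genes above both other genotypes was not computed. Against Ms4a6c KO, the Ms4a cluster KO level was lower by 2.39-fold, with a log2 fold change of -1.26 (SE 0.32, 95% interval -1.96 to -0.55, edgeR adjusted p = 0.206). There 9.38% of genes had an unadjusted p under 0.05, 8.09% were lower in all 3 cluster mice and 0.443% passed after adjustment. Between Ms4a cluster KO and wild-type the log2 fold change was -0.14 (SE 0.33, 95% interval -0.87 to 0.59, edgeR adjusted p = 1), an interval that runs from 0.547-fold to 1.51-fold. The order of the means was Ms4a6c KO, wild-type and Ms4a cluster KO, and the last 2 did not differ beyond their spread.

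In whole tissue, more cells of a type and more RNA per cell cannot be told apart. The levels of other cell type lists in the same mice are given here, and their part in the Gucy1b2 level was not tested. The 5 sustentacular genes, which mark the supporting cells, summed to between 21970 and 23630 CPM in Ms4a6c KO, between 17520 and 18150 CPM in wild-type and between 17280 and 19540 CPM in Ms4a cluster KO. No sustentacular gene passed the edgeR test. An unadjusted p under 0.05 in Ms4a6c KO against wild-type, which 10.48% of all genes had, was found for 4 of 5, with positive log2 fold changes for Cyp2a5, Cyp2g1 and Cyp1a2 (0.41, 0.32 and 0.26) and a negative one for Ermn (-0.41). The 7 genes of tuft and Trpm5 microvillous cells overlapped between genotypes, with sums of 19.7 to 31.2 CPM in wild-type, 22.1 to 27.9 CPM in Ms4a cluster KO and 22.4 to 26.2 CPM in Ms4a6c KO. The 9 genes of immature neurons and precursors also overlapped, at 390.4 to 542.6, 416.3 to 547.5 and 386.8 to 521.8 CPM in the same order. Of these, 2 of 9 had a positive log2 fold change in Ms4a6c KO against wild-type, with a list median of -0.12, and Sox11 and Nhlh2 had an unadjusted p under 0.05. Nhlh2, a transcription factor of immature neurons, was at 10.66, 15.42 and 15.99 CPM in wild-type and at 10.04, 5.83 and 7.84 CPM in Ms4a6c KO. Its log2 fold change was -0.82 (SE 0.23, edgeR adjusted p = 0.228). The 13 mature neuron genes ranged from 13680 to 15610 CPM in wild-type, from 12360 to 15530 CPM in Ms4a cluster KO and from 14890 to 15550 CPM in Ms4a6c KO. Without both gland-rich mice the Gucy1b2 log2 fold change of Ms4a6c KO against wild-type was 1.05 (SE 0.37, edgeR adjusted p = 0.217).

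Trpc2 was highest in wild-type replicates 1 and 2, and no difference between genotypes passed the test. Its expected counts were 62.22, 88.17 and 35.86 in wild-type, 36.25, 23.38 and 44.21 in Ms4a cluster KO, and 82.79, 32.49 and 35.21 in Ms4a6c KO. The wild-type levels were 4.41, 4.88 and 2.05 CPM, a mean of 3.78 ± 1.52 (SD, n = 3). The Ms4a cluster KO levels were 1.80, 2.29 and 2.21 CPM, a mean of 2.10 ± 0.261 (SD, n = 3). The Ms4a6c KO levels were 3.40, 1.99 and 2.23 CPM, a mean of 2.54 ± 0.758 (SD, n = 3). Wild-type replicate 3 lay among the knockout mice, so no pair of genotypes was separated.

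The log2 fold change of Trpc2 in Ms4a cluster KO against wild-type was -0.85 (SE 0.34, 95% interval -1.6 to -0.1, unadjusted p = 0.03, edgeR adjusted p = 0.968). Of all genes in this comparison, 4.93% had an unadjusted p under 0.05 and 0.0258% passed after adjustment. In Ms4a6c KO against wild-type it was -0.56 (SE 0.33, edgeR adjusted p = 0.586), and in Ms4a cluster KO against Ms4a6c KO it was -0.30 (SE 0.34, edgeR adjusted p = 0.832). The order of the means was wild-type, Ms4a6c KO and Ms4a cluster KO, and no neighbours in that order differed beyond their spread after adjustment.

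Among the wild-type mice Xntrpc was low where Trpc2 was high. Its levels were 0.995, 1.89 and 5.52 CPM in wild-type, 4.16, 2.59 and 4.36 CPM in Ms4a cluster KO, and 4.14, 4.09 and 3.50 CPM in Ms4a6c KO. Wild-type replicates 1 and 2, the highest for Trpc2, were the lowest for Xntrpc, and replicate 3 was the highest for Xntrpc. Of the reads given to either gene, Trpc2 took 82.1%, 72.1% and 27.0% in wild-type, 30.4%, 47.8% and 33.6% in Ms4a cluster KO, and 44.9%, 33.0% and 39.0% in Ms4a6c KO. These shares rest on the quantification program's division of shared reads, and how far they follow the true splicing was not tested.

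The sum of Trpc2 and Xntrpc varied less between the wild-type mice than either gene, though not within the knockouts. It came to 5.40, 6.77 and 7.57 CPM in wild-type, a mean of 6.58 ± 1.09 (SD, n = 3). In Ms4a cluster KO it was 5.96, 4.88 and 6.57 CPM, a mean of 5.80 ± 0.852 (SD, n = 3), and in Ms4a6c KO it was 7.54, 6.08 and 5.73 CPM, a mean of 6.45 ± 0.96 (SD, n = 3). All 3 genotypes overlapped. With the counts summed, which was chosen after the data were seen, the log2 fold change against wild-type was -0.17 in Ms4a cluster KO (SE 0.18, edgeR adjusted p = 0.986) and -0.02 in Ms4a6c KO (SE 0.18, edgeR adjusted p = 0.982). The summed means were still below wild-type in both knockouts, by less than the spread between mice.

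**Figure D2:**
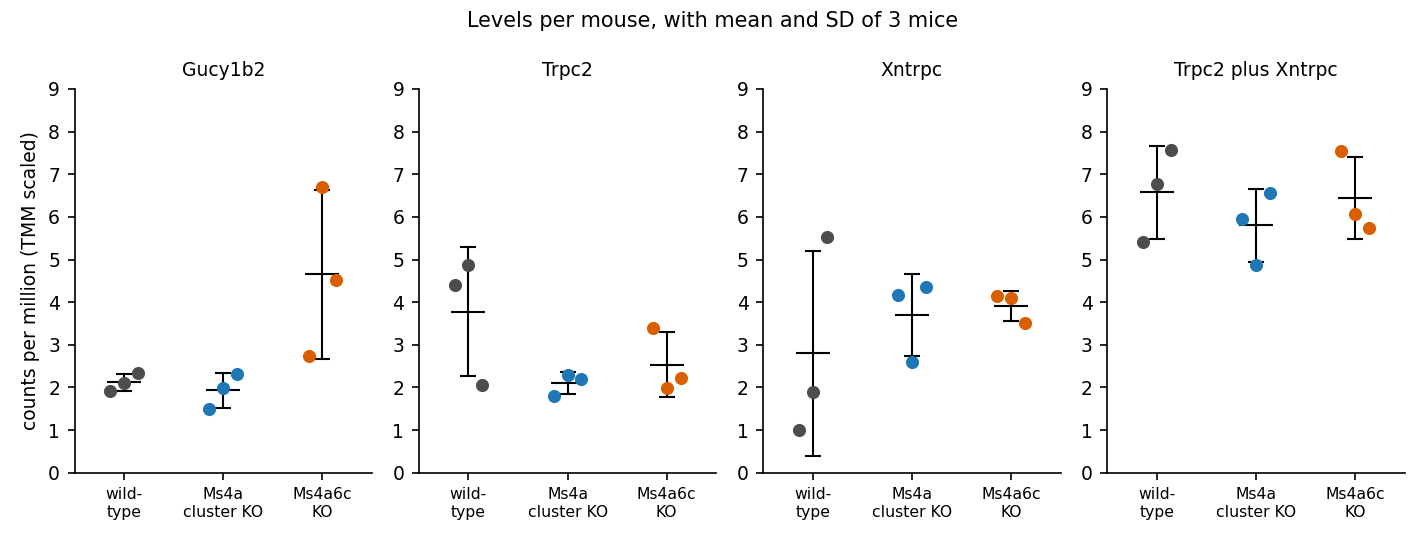
CPM of Gucy1b2, Trpc2, Xntrpc and the sum of Trpc2 and Xntrpc, with 1 point per mouse in replicate order from left to right and bars for the mean and SD of 3 mice. The 3 Ms4a6c KO mice sit between 2.75 and 6.70 for Gucy1b2, above all other mice, while the summed counts run from 4.88 to 7.57 with every genotype overlapping.

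Vomeronasal neurons also use Trpc2, so transcripts of that organ were examined beside it. Of the 603 genes, 29 passed the filter and 0 were called by edgeR in any comparison at an adjusted p under 0.05, with 1, 4 and 2 at an unadjusted p under 0.05 in Ms4a cluster KO against wild-type, Ms4a6c KO against wild-type and Ms4a cluster KO against Ms4a6c KO, beside 4.93%, 10.48% and 9.38% of all genes. Their summed level was 9.10 to 10.24 CPM in wild-type, 9.17 to 12.9 CPM in Ms4a cluster KO and 11.6 to 13.2 CPM in Ms4a6c KO. Both receptor families are counted here with their pseudogenes, most of which were at 0. Vomeronasal type 1 receptor entries were at 0 in all mice for 273 of 349, and type 2 entries for 180 of 240. The 9 H2-M genes, which encode MHC class I-like molecules of basal vomeronasal neurons, summed to 1.97 ± 0.928 CPM in wild-type, 1.97 ± 0.99 CPM in Ms4a cluster KO and 4.17 ± 1.44 CPM in Ms4a6c KO (SD, n = 3). Among them H2-M10.6 had a log2 fold change of 1.80 in Ms4a6c KO against wild-type (SE 0.43, edgeR adjusted p = 0.15). Type 2 receptors with their pseudogenes summed to 4.62 ± 1.52 CPM in wild-type and 4.57 ± 0.966 CPM in Ms4a6c KO. The part of vomeronasal transcripts in the Trpc2 level was not tested.

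Whether the 2 genes moved together over mice was asked on log2 CPM. Gucy1b2 and Trpc2 had a Pearson r of -0.25 over 9 mice (exact two-sided permutation p = 0.545, adjusted p = 0.817 over the 3 relations computed) and a Spearman rho of -0.15 (exact permutation p = 0.708). Without the 2 mice farthest from the Gucy1b2 median, Ms4a6c KO replicates 2 and 3, r was 0.25 (exact permutation p = 0.599). Within genotypes, as deviations from each genotype mean, r was -0.48 (exact permutation p = 0.181 over 216 orders). No joint movement was detectable, and the sign depended on a pair of mice. As a description, 29.5% of the 23224 other genes had a lower r with Gucy1b2 than Trpc2 did.

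The sum of Trpc2 and Xntrpc gave no relation with Gucy1b2 either, with r = 0.07 over 9 mice (exact permutation p = 0.869, adjusted p = 0.869) and rho = 0.38 (exact permutation p = 0.312). Without the same 2 mice r was 0.63 over the other 7 (exact permutation p = 0.132), and within genotypes it was -0.21 (exact permutation p = 0.667). In Ms4a6c KO replicate 2, where Gucy1b2 reached 6.70 CPM, the sum was 6.08 CPM, close to its mean in wild-type. Among the 6 wild-type and Ms4a cluster KO mice, r was 0.16 for Trpc2 (exact permutation p = 0.825) and 0.48 for the sum (exact permutation p = 0.358). Without both gland-rich mice r was -0.18 for Trpc2 over 7 mice (exact permutation p = 0.741) and -0.31 for the sum (exact permutation p = 0.506).

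Trpc2 and Xntrpc had r = -0.77 and rho = -0.72 over 9 mice. This is a description with no test, since the pair was chosen after its values were seen and divides shared reads, so that a read given to 1 gene is not given to the other. Within genotypes r was -0.72, without both gland-rich mice it was -0.79, and without wild-type replicates 1 and 2 it was -0.13, so the relation rests on those 2 mice. Of the other genes, 0.57% had a lower r with Trpc2.

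**Figure D3:**
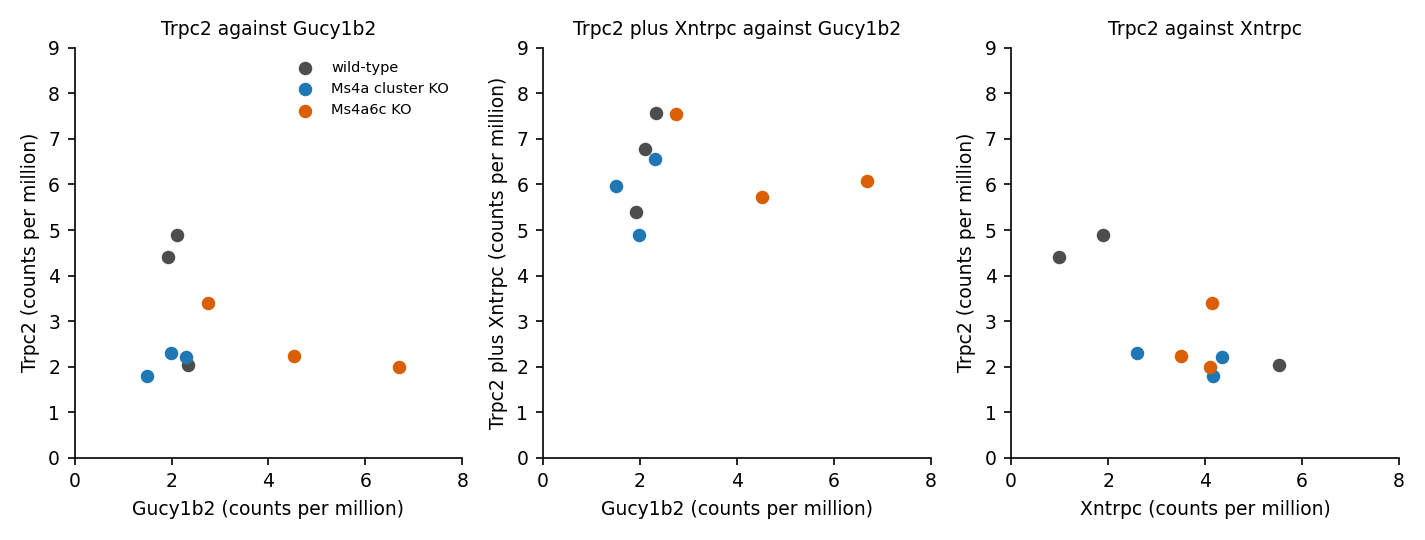
CPM of Trpc2 against Gucy1b2, of the summed Trpc2 and Xntrpc against Gucy1b2, and of Trpc2 against Xntrpc, with 1 point per mouse colored by genotype. The Ms4a6c KO mice extend along the Gucy1b2 axis to 6.70 CPM without a matching rise in Trpc2, and wild-type replicates 1 and 2 stand alone at high Trpc2 and low Xntrpc.

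The ratio of Trpc2 to Gucy1b2 counts within a mouse does not depend on library size. It was 2.30, 2.32 and 0.878 in wild-type, a mean of 1.83 ± 0.825 (SD, n = 3). In Ms4a cluster KO it was 1.20, 1.15 and 0.957, a mean of 1.10 ± 0.129 (SD, n = 3). In Ms4a6c KO it was 1.24, 0.296 and 0.493, a mean of 0.676 ± 0.497 (SD, n = 3). With Xntrpc added to Trpc2, the mean ratio was 3.09 ± 0.239 in wild-type, 3.09 ± 0.786 in Ms4a cluster KO and 1.64 ± 0.971 in Ms4a6c KO (SD, n = 3). The summed ratio was 2.45 or more in 7 of the mice and 0.917 and 1.27 in Ms4a6c KO replicates 2 and 3, the mice with the most Gucy1b2. Gucy1b2 is the divisor, so a high Gucy1b2 level by itself lowers the ratio. The ratios were not tested.

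The genes whose log2 CPM followed each marker most closely over the 9 mice differed between the markers. For Gucy1b2 they were Gm6685 (Pearson r = 0.963), Prpf4b (r = 0.961), Gm42547 (r = 0.956), the odorant receptor gene Olfr323 (r = 0.948) and Itsn2 (r = 0.947). For Trpc2 they were Vps35 (r = 0.973), Gm50139 (r = 0.950), Slc25a44 (r = 0.944), Fsbp (r = 0.923) and U2surp (r = 0.909). These are the highest of 23224 values over the same 9 libraries, some come from genes below 1 CPM, and no test was made. None of the 10 passed the test in any comparison (edgeR adjusted p of 0.12 or more). Genes within 1000 kb of the markers were also examined, and 0 of 23 around Gucy1b2 and 0 of 64 around Trpc2 were called by edgeR in any comparison, against 0 to 3 and 4 to 7 at an unadjusted p under 0.05, where all genes had 4.93% in Ms4a cluster KO against wild-type, 10.48% in Ms4a6c KO against wild-type and 9.38% between the knockouts.

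Gucy1b2 was compared with the other subunits of soluble guanylate cyclase, which works as a pair of an alpha and a beta chain. Per kb of exon, the wild-type levels of Gucy1b2, the alpha subunit Gucy1a1 and the usual beta subunit Gucy1b1 were near each other, at 0.772, 0.735 and 0.699 CPM per kb. The alpha subunit Gucy1a2 was far lower at 0.0354 CPM per kb. Of the 4 subunits 0 were called by edgeR in any comparison, and Gucy1b2 was the one with an unadjusted p under 0.05 in Ms4a6c KO against wild-type and in Ms4a cluster KO against Ms4a6c KO. In Ms4a6c KO against wild-type the log2 fold changes were 0.33 for Gucy1a1 (SE 0.20), 0.49 for Gucy1b1 (SE 0.51) and 0.86 for Gucy1a2 (SE 0.57). The list's median of 0.67 compares with -0.002 over all genes. That median takes in Gucy1b2 itself and Gucy1a2, which was near the limit of detection. Gucy1a2 had 2, 4 and 6 expected counts in wild-type and 16, 5 and 5 in Ms4a6c KO. In Ms4a cluster KO against wild-type Gucy1b1 had a log2 fold change of 1.05 (SE 0.51, edgeR adjusted p = 0.968), with 11.9 CPM in gland-rich replicate 2 beside 2.96 and 3.01 CPM in the other mice of the group. Gucy1a1 was also highest in that mouse, at 9.37 CPM.

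The remaining pathway lists, outside the TRPC channels, had median log2 fold changes near that of all genes, between -0.09 and 0.11 in Ms4a cluster KO against wild-type and between -0.11 and 0.11 in Ms4a6c KO against wild-type. The enzymes that make the gases sensed by soluble guanylate cyclase gave 0 calls of 5 in each comparison. Hmox1, the inducible heme oxygenase that releases carbon monoxide, was nearest to the threshold. Its levels were 17.2, 17.1 and 17.6 CPM in wild-type, 20.6, 24.6 and 22.1 CPM in Ms4a cluster KO, and 21.9, 28.8 and 28.4 CPM in Ms4a6c KO. Every knockout mouse was above every wild-type mouse. In Ms4a6c KO against wild-type 9.71% of all genes were higher without overlap, and the share for both knockouts was not computed. The log2 fold change was 0.60 in Ms4a6c KO (SE 0.11, edgeR adjusted p = 0.0627) and 0.37 in Ms4a cluster KO (SE 0.11, edgeR adjusted p = 0.968), and the first passed the test under 4 of the alternatives given at the end. Hmox2, the constitutive form, had log2 fold changes of -0.02 (SE 0.06) and -0.06 (SE 0.06) in the same comparisons. The nitric oxide synthases Nos1 and Nos3 had log2 fold changes of 0.11 (SE 0.13) and 0.45 (SE 0.29) in Ms4a6c KO against wild-type.

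The receptor guanylate cyclases, which carry their own ligand-binding domain, gave 0 calls of 7. Gucy2d, the cyclase of necklace neurons, had a log2 fold change of 0.11 in Ms4a cluster KO (SE 0.29) and of -0.21 in Ms4a6c KO (SE 0.29) against wild-type. The list of phosphodiesterases that break down cyclic GMP, which takes in accessory subunits such as Pde6d, Pde6g and Pde6h, gave 0 edgeR calls of 15 tested. DESeq2 called Pde1c in Ms4a cluster KO against Ms4a6c KO. Pde5a, which is specific for cyclic GMP, had a log2 fold change of 0.38 in Ms4a6c KO against wild-type (SE 0.09, edgeR adjusted p = 0.168), with 20.6 to 23.7 CPM in the knockout mice and 14.9 to 18.3 CPM in wild-type. Pde11a, which acts on both cyclic nucleotides, had one of 0.50 (SE 0.16, edgeR adjusted p = 0.292). Pde1c, the calmodulin-activated enzyme of olfactory cilia, had a log2 fold change of -0.26 in Ms4a cluster KO against Ms4a6c KO (SE 0.08, edgeR adjusted p = 0.298). Of the 8 channels and kinases that cyclic nucleotides act on, 0 were called. Cnga2, the channel that type B cells share with ordinary olfactory neurons, stood at 307.7 ± 40.1 CPM per kb in wild-type (SD, n = 3), far above the per-kb level of Gucy1b2, and had log2 fold changes of -0.09 in both knockouts (SE 0.12).

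Trpc2 was compared with the other TRPC channels, a family of cation channels most of which open after phospholipase C is activated. In wild-type mice Trpc1 was at 5.78 CPM per kb, Trpc2 at 1.32 CPM per kb and Trpc4 at 0.424 CPM per kb, where the Trpc2 level leaves out the shared reads assigned to Xntrpc. Of the 7 channels 0 were called in each comparison. Trpc1 had log2 fold changes of -0.03 (SE 0.08) and 0.11 (SE 0.08) in Ms4a cluster KO and Ms4a6c KO against wild-type. The other genes of vomeronasal-type transduction, which act with Trpc2 in that organ, gave 0 calls of 7. Among them the G protein subunits Gnai2 and Gnao1 had log2 fold changes of 0.04 (SE 0.06) and -0.02 (SE 0.10) in Ms4a cluster KO and of -0.01 (SE 0.06) and -0.03 (SE 0.10) in Ms4a6c KO.

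Over all 53 tested genes of these pathway lists, edgeR called 0 in each comparison at an adjusted p under 0.05, and 4, 4 and 6 had an unadjusted p under 0.05 in Ms4a cluster KO against wild-type, Ms4a6c KO against wild-type and Ms4a cluster KO against Ms4a6c KO. In Ms4a6c KO against wild-type those 4 were Gucy1b2, Pde11a, Hmox1 and Pde5a. Their share is to be read beside the 10.48% of all genes given above.

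**Figure D4:**
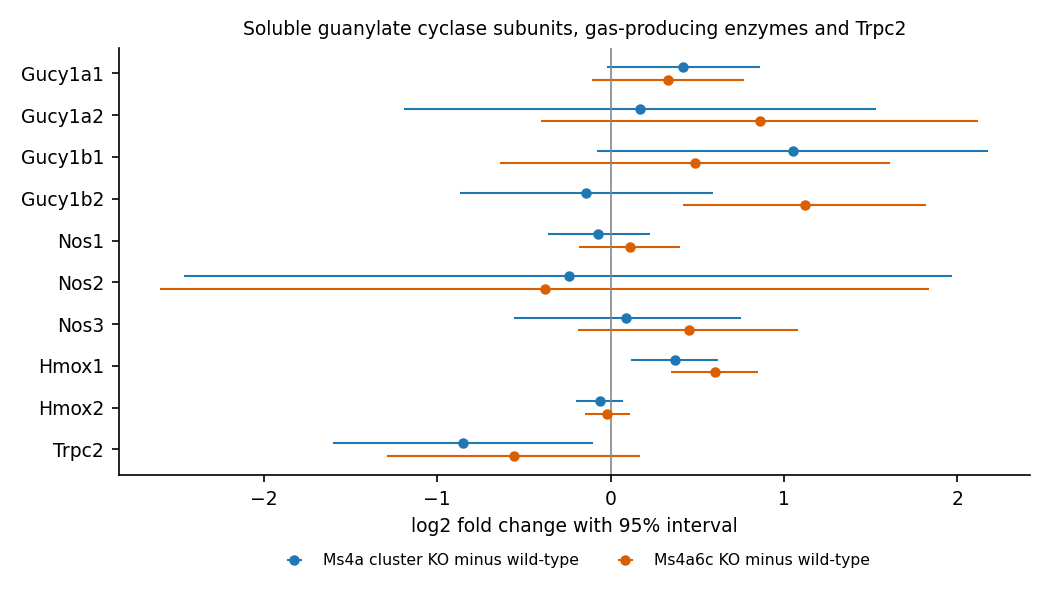
Log2 fold changes against wild-type with 95% intervals from the edgeR fit for soluble guanylate cyclase subunits, gas-producing enzymes and Trpc2 in both knockouts. The Gucy1b2 interval lies above 0 in Ms4a6c KO, those of Hmox1 lie above 0 in both knockouts, and that of Trpc2 lies below 0 in Ms4a cluster KO, although 0 of these genes were called after adjustment.

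One gene of the cell type lists was called. Gng13, a G protein gamma subunit of mature olfactory neurons, was at 347.5, 371.1 and 358.7 CPM in wild-type, 420.7, 331.6 and 367.3 CPM in Ms4a cluster KO, and 178.8, 197.7 and 203.1 CPM in Ms4a6c KO. It fell by 0.89 on the log2 scale in Ms4a6c KO against wild-type (SE 0.09, edgeR adjusted p = 0.00121), while the median of its list was 0.07. The other 12 genes of the mature neuron list were not called. Of the 13, 10 had a positive log2 fold change in Ms4a6c KO against wild-type and 1 in Ms4a cluster KO against Ms4a6c KO, where the list median was -0.14.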

How the data were processed

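RNA from 9 epithelia, 3 mice per genotype by the sample labels, was made into directional poly-A libraries. The authors aligned paired-end reads with STAR 2.6.1 and quantified them with RSEM 1.3.1 on GENCODE M25 (GRCm38), and deposited expected counts, not normalized. These estimated counts were rounded here. Genes with at least 10 counts over all mice, 23225 of 55291, were scaled by TMM and tested in 1 model with edgeR 4.0.16 (quasi-likelihood, Benjamini-Hochberg, R 4.3.3), and the fit was tested on simulated counts. Log2 CPM used a prior count of 2. DESeq2 1.42.0 was an alternative. Permutation tests enumerated all pairings in Python 3.11.15. Exons and lengths came from GENCODE M21. Totals of 13954591 to 21987174 expected counts per mouse set the precision, and limits cover counting error only.

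The rule named the 2 genes, the genes overlapping them, the pathway lists, up to 3 examples per cell type list and the 5 most correlated genes per marker. H2-M10.6, Ermn, Cyp1a2, Sox11, Nhlh2 and Gng13 were named after their values were seen. The markers and lists were chosen with earlier results of these data known. Alternatives changed the scaling, the filter, the samples and the treatment of overlapping genes.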

Additional observations from a re-analysis of the deposited data

Results flagged for a closer look

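Gng13 differed between the knockouts. Its log2 fold change was 0.95 in Ms4a cluster KO against Ms4a6c KO (SE 0.09, edgeR adjusted p = 0.00073), higher in 3 of 3 cluster mice, because the gene was lower in Ms4a6c KO and had a log2 fold change of 0.06 in Ms4a cluster KO against wild-type (SE 0.09, edgeR adjusted p = 0.999). The cause was not tested.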

How the results depend on the processing

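Neither gene was called under any alternative run. Gucy1b2 in Ms4a6c KO against wild-type kept its direction in all 18, from 0.76 to 1.40 on the log2 scale (edgeR or DESeq2 adjusted p 0.0651 to 0.547), as it did in Ms4a cluster KO against Ms4a6c KO (-1.54 to -0.90, adjusted p 0.0518 to 0.53). In Ms4a cluster KO against wild-type it ran from -0.31 to 0.03 with 1 mouse left out, the latter without cluster replicate 1. Trpc2 in Ms4a6c KO against wild-type ran from -0.86 to -0.32 with 1 mouse left out, the ends without wild-type replicates 3 and 2. Against wild-type in Ms4a cluster KO, Trpc2 ran from -1.15 to -0.62 with the same ends (edgeR unadjusted p 0.00199 and 0.129). Summed with Xntrpc and Xndc1, Trpc2 was at 0.02 in Ms4a6c KO and -0.14 in Ms4a cluster KO against wild-type. The number of pathway genes called was 1 in place of 0 for Ms4a6c KO against wild-type with no filter, with DESeq2, without Ms4a cluster KO replicate 2 and without Ms4a6c KO replicate 1 (Hmox1, so 0 to 1 with 1 mouse left out), and 1 for Ms4a cluster KO against Ms4a6c KO with DESeq2 (Pde1c). The r of Gucy1b2 and Trpc2 changed sign with plain library size (0.01), without the 2 mice farthest from the Gucy1b2 median (0.25), with both overlapping genes summed (0.05), with Xntrpc summed (0.07) and over wild-type and cluster mice alone (0.16), and was -0.50 to -0.05 with 1 mouse left out. The mean Trpc2 to Gucy1b2 ratio became 9.9, 10.12 and 5.33 in wild-type, Ms4a cluster KO and Ms4a6c KO with both overlapping genes summed, and 3.09, 3.09 and 1.64 with Xntrpc summed, by construction. With 1 mouse left out it was 1.59 to 2.31, 1.05 to 1.17 and 0.395 to 0.866. Calls over all genes, 6, 101 and 103, ran from 2 to 18, 59 to 350 and 58 to 271 over the alternatives. Same-numbered mice did not deviate together (correlations -0.54 to 0.11), and the labels do not say that numbers mark a shared litter or day. With the replicate block, Gucy1b2 was at 1.07 in Ms4a6c KO against wild-type (edgeR adjusted p = 0.255) and Trpc2 at -0.78 in Ms4a cluster KO against wild-type (edgeR adjusted p = 1), with 2, 71 and 75 genes called in all. Leaving out both gland-rich mice, summing Xntrpc alone and the mice of 2 genotypes in the correlation were chosen after the data were seen. Other causes were not tested. At 20 to 108 counts of Gucy1b2 per mouse, small changes of either gene were not detectable.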
